A study of Homo sapiens with 6 samples.

Results

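YAP1, the 4 TEAD factors, VGLL4 and the kinases LATS1, LATS2, STK3 and STK4 form the core of the Hippo pathway around TAZ, and their mRNA levels were measured after TAZ knockdown. These 10 genes were selected by their symbols from the 46427 genes of the deposited table, and all 10 passed the filter on low counts. The cells were MDA-MB-231, a metastatic human breast cancer line, grown in low-glucose DMEM (5.5 mM) with 10% fetal bovine serum. Of 6 cell preparations, 3 received control-siRNA (labelled WT) and 3 received TAZ-siRNA, a siGENOME siRNA against human WWTR1, the gene that encodes TAZ, with DharmaFECT4 as the carrier. The product used as control-siRNA was not given in the sources used here, and the time from transfection to RNA extraction is stated by the study for its PCR assays but not for the sequenced cultures. The knockdown was transient and in 1 cell line, so no second line or second siRNA stands beside it. Because RNA was taken from whole cultures, fewer cells expressing a gene and less of its RNA per cell cannot be told apart.

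In the Hippo pathway, the kinases MST1 and MST2 (genes STK4 and STK3) activate LATS1 and LATS2, which phosphorylate the paralogous coactivators YAP and TAZ and keep them out of the nucleus. YAP and TAZ do not bind DNA themselves and act on genes through the TEAD transcription factors. VGLL4 competes with YAP for TEAD and restrains TEAD-driven transcription. In breast cancer cells, YAP and TAZ are studied for their part in growth, migration and invasion.

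WWTR1 mRNA, the target of the siRNA, reached 192, 190 and 190 CPM with control-siRNA, against 17.3, 17.0 and 15.1 CPM with TAZ-siRNA. CPM are counts scaled to a common library size with edgeR's TMM factors. WWTR1 was thus at 8.65% of control-siRNA (95% interval 7.87 to 9.50%, adjusted p = 2.47e-10, from the quasi-likelihood test of edgeR that is used for all genes here). The libraries held 48307548 to 71749634 counts, and each of the 10 genes had 683 to 19798 counts per library. At 683 counts, counting error alone is 3.83%, so the spread between libraries rather than depth set the precision for most values. The markers fixed for a mesenchymal-like line, such as VIM and CD44, were all present (89.1 to 3490 CPM on average), whereas of the luminal markers ESR1 and PGR did not pass the filter, and CDH1 (0.0406 to 0.579 CPM), EPCAM (0.771 to 1.59 CPM), FOXA1 (4.12 to 5.57 CPM) and GATA3 (5.88 to 9.53 CPM) were low. Of the 6 mesenchymal-like markers 3 were lower with TAZ-siRNA (CAV1, EGFR and AXL), as were the luminal GATA3 (8.67 to 6.23 CPM) and the muscle gene DES (3.79 to 2.24 CPM), and their part in the results was not tested. Of the markers of other cell types, the immune PTPRC had 0 counts in all libraries, a limit of 0.0618 CPM or less, the liver gene ALB did not pass the filter, and the endothelial PECAM1 was at 4.15 to 6.29 CPM. A gene was called when its adjusted p was under 0.05, which applied to 3749 (22.1%) of 16966 genes, 11.9% being higher and 10.2% lower with TAZ-siRNA. Replicate 3 of the TAZ-siRNA group stood apart: leaving it out brought the called genes to 33.7%, so values without it are given beside the results on the 10 genes that depend on it.

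VGLL4 mRNA was higher, and TEAD1, TEAD4 and STK4 mRNAs were lower, in cells treated with TAZ-siRNA. YAP1, TEAD2, TEAD3, LATS1, LATS2 and STK3 did not pass the test. Of the 10 genes, 4 were thus called (1 higher, 3 lower), against the 22.1% of all genes given above. An unadjusted p under 0.05 was found for 5 of the 10, beside 6069 of all 16966 genes. The same 4 genes had libraries that did not overlap between the groups, a property of 39.6% of all genes tested. Leaving out control-siRNA replicate 2 left 2 of the 10 called, beside 11.2% of all genes, and leaving out TAZ-siRNA replicate 3 left 5, beside 33.7%. A correction for GC content and length, chosen after seeing the data, left the count at 4, beside 28.8%. The median absolute log2 fold change of the 10 genes was 0.14, beside 0.17 for all genes, and their median log2 fold change was 0.026, beside -0.0054. By size, 17.7% of the genes tested changed more than VGLL4, 25.9% more than TEAD4, 30.6% more than TEAD1, 43.1% more than STK4 and 98.8% more than YAP1.

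**Figure D1:**
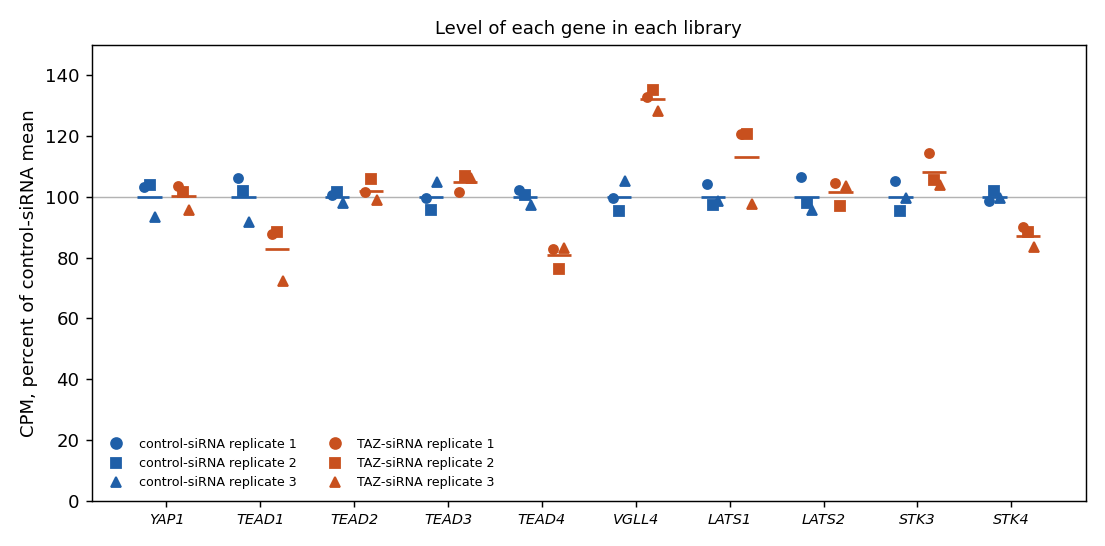
CPM of the 10 genes in each library as a percent of the control-siRNA mean of that gene (vertical axis, from 0). Points are libraries, with a shape for each replicate number, and bars are group means. All TAZ-siRNA libraries of VGLL4 lie above its control-siRNA libraries (128 to 135%), those of TEAD1, TEAD4 and STK4 lie below, and the groups overlap for the other 6 genes.

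YAP1 (NCBI gene 10413, GRCh38 chr11:102109957-102233424), the paralogue of TAZ, was 154, 155 and 139 CPM with control-siRNA and 155, 152 and 143 CPM with TAZ-siRNA. The groups covered nearly the same range, with replicate 3 lowest in both. The level with TAZ-siRNA was 100.2% of control-siRNA, with an interval of 91.9 to 109% (adjusted p = 0.97 by edgeR), so larger rises or falls lie outside the interval. Counted per transcript length (TPM), YAP1 stood at 58.9 ± 5.96 and WWTR1 at 82.3 ± 2.27 with control-siRNA (SD, n = 3). With TAZ-siRNA they were 60.6 ± 5.30 and 7.40 ± 0.866 TPM (SD, n = 3). Summed over both coactivators, the TPM was 146, 146 and 132 in the control-siRNA group but 71.9, 71.2 and 60.9 in the TAZ-siRNA group, a mean of 48.2% of control-siRNA. YAP1 made up 41.6 ± 1.91% of that sum with control-siRNA and 89.1 ± 0.308% with TAZ-siRNA (SD, n = 3). The share thus rose in all TAZ-siRNA libraries while the level of YAP1 itself overlapped between the groups.

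The promoter windows of YAP1 and LATS2 are shown because they are the 2 windows among those of these genes that hold the TEAD motif, and the window of the main VGLL4 start is shown because VGLL4 changed most. The windows run from 250 bases before to 50 bases after the start in RefSeq (GRCh38.p14), and 13 windows of 7 of the 10 genes were in the table. Capitals mark the letters CATTCC or their complement GGAATG, searched on both strands. They occur in 14% of all 35116 windows of that length. In YAP1 (chr11:102110197-102110496, plus strand) the match starts 162 bases before the start, in LATS2 (chr13:21061537-21061836, minus strand) 9 bases after it, and the VGLL4 window (chr3:11643866-11644165, minus strand) has none. The YAP1 window is not that of XM_005271380, the YAP1 transcript with the most counts (36.8%), which starts at 102109957, before the window. A match describes these letters and is not evidence of binding, and neither YAP1 nor LATS2 was called. TEAD1, TEAD4 and STK3 had no window and were not searched. As TEAD1 and TEAD4 were called, how motif and call go together over the 10 genes was not tested.
YAP1: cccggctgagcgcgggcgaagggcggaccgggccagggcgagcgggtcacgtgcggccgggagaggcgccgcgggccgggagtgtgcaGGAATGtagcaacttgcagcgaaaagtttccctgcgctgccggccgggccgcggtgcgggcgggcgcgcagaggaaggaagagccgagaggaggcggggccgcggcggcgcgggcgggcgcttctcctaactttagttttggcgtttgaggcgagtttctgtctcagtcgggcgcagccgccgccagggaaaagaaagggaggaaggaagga
LATS2: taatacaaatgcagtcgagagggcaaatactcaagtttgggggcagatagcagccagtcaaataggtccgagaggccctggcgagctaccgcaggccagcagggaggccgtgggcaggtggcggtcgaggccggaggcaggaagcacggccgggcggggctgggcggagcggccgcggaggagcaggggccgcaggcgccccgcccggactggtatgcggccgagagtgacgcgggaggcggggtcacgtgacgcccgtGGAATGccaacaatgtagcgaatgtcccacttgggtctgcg
VGLL4: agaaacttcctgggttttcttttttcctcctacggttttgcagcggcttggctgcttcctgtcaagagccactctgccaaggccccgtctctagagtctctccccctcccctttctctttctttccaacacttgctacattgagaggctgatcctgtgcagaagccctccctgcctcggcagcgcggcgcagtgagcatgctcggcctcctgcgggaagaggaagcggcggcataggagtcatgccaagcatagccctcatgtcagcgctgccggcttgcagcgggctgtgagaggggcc

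TEAD1 and TEAD4 mRNAs were lower with TAZ-siRNA, at 82.9% and 80.8% of control-siRNA, whereas TEAD2 and TEAD3 were at 102% and 105% and were not called. The 4 genes encode DNA-binding factors with the same TEA domain, which recruit YAP and TAZ to promoters and enhancers. TEAD4 (NCBI gene 7004, chr12:2959397-3040676) was 18.6, 18.3 and 17.7 CPM with control-siRNA and 15.03, 13.9 and 15.1 with TAZ-siRNA. No TAZ-siRNA library reached the lowest control-siRNA library. Its log2 fold change was -0.31 (SE 0.067, adjusted p = 0.0091 by edgeR) and TEAD4 was called in all 15 alternative fits, including without TAZ-siRNA replicate 3 (-0.33).

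TEAD1 (NCBI gene 7003, chr11:12674421-12944737) was 297, 285 and 256 CPM with control-siRNA and 246, 247 and 202 CPM with TAZ-siRNA. The groups did not overlap, but the lowest control-siRNA library lay close above the highest TAZ-siRNA library, and replicate 3 was lowest in both groups. The log2 fold change was -0.27 (SE 0.084, adjusted p = 0.042 by edgeR). Without TAZ-siRNA replicate 3 it was -0.18 (adjusted p = 0.028), and the call was lost without control-siRNA replicate 1 (adjusted p = 0.16), control-siRNA replicate 2 (0.14) or TAZ-siRNA replicate 1 (0.071), and with limma on FPKM (0.10 to 0.11). TEAD1 was called in 10 of the 15 alternative fits.

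TEAD2 (NCBI gene 8463, chr19:49340595-49362452) spanned 20.5 to 21.3 CPM in the control-siRNA group, 20.7 to 22.1 CPM in the TAZ-siRNA group, and the interval of its level ran from 93.0 to 112% of control-siRNA. TEAD3 (NCBI gene 7005, chr6:35473597-35497079) was 18.8 to 20.6 and 20.02 to 21.1 CPM, with an interval of 95.2 to 116%. The groups overlapped for both.

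Measured per length, TEAD1 was the most abundant of the 4 in every library. It made up 52.5 ± 1.62% of the summed TEAD TPM with control-siRNA and 49.3 ± 3.11% with TAZ-siRNA (SD, n = 3), where the groups overlapped. The shares of TEAD2 (16.9 ± 0.527% and 19.4 ± 0.859%, SD, n = 3) and TEAD3 (11.7 ± 1.00% and 13.9 ± 0.917%, SD, n = 3) were higher in every TAZ-siRNA library than in any control-siRNA library. That gave an exact permutation p of 0.1 each (2-sided, adjusted p = 0.17 over 7 ratios and shares), the smallest that 3 libraries against 3 allow. The share of TEAD4 was 18.9 ± 0.294% and 17.4 ± 1.55% (SD, n = 3), and its groups overlapped. The summed TPM of the 4 genes was 129, 126 and 114 with control-siRNA and 119, 118 and 101 with TAZ-siRNA. These ranges overlapped (exact permutation p = 0.3), so a fall of the summed TEAD TPM was not shown, although 2 of the 4 genes were called. The calls rest on CPM with TMM factors, whereas the sum uses the TPM scaled by the authors. In TPM the groups overlapped for TEAD1 too (57.5 to 69.4 with control-siRNA, 46.0 to 60.7 with TAZ-siRNA), unlike in CPM. A sum in CPM was not tested, so the result for the TEAD pool holds for TPM only.

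VGLL4 (NCBI gene 9686, chr3:11556067-11720715), the TEAD cofactor that opposes YAP, showed the largest change of the 10 genes. It was 38.6, 36.9 and 40.7 CPM with control-siRNA and 51.5, 52.4 and 49.7 CPM with TAZ-siRNA. The groups were separated by more than the range within either. The level was 132% of control-siRNA (interval 121 to 144%), a log2 fold change of 0.40 (SE 0.056, adjusted p = 0.00093 by edgeR). It was called in all 15 alternative fits, and the log2 fold change was 0.37 to 0.44 with each library left out in turn. VGLL4 TPM per 100 TPM of the 4 TEAD genes went from 17.8, 17.4 and 20.4 with control-siRNA to 27.1, 27.9 and 28.7 with TAZ-siRNA. This is 150% of the control-siRNA mean, and the libraries did not overlap.

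**Figure D2:**
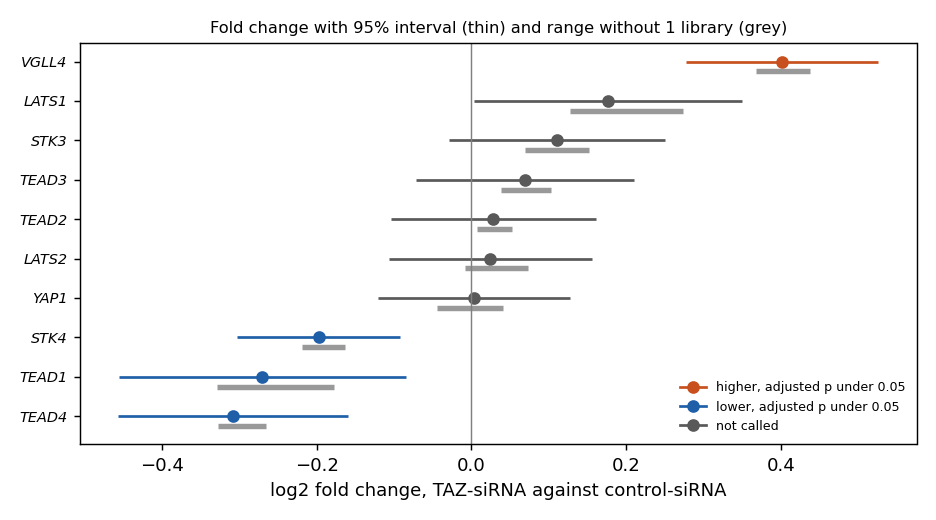
Log2 fold change of each gene with TAZ-siRNA against control-siRNA (horizontal axis) by edgeR, with its 95% interval as a thin coloured line and, as a thick grey line, the range of the fold changes when each library is left out in turn. VGLL4 lies at 0.40 and TEAD4 at -0.31, with ranges well away from 0, while the range of YAP1 runs from -0.045 to 0.041.

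The 13 listed VGLL4 transcripts were grouped by the position of their 5′ end. NM_001128219, the only listed transcript that starts at chr3 position 11643915, held 77.7% of VGLL4 counts over the 6 libraries. It was at 31.2, 27.5 and 32.5 CPM with control-siRNA and at 43.3, 36.5 and 37.2 CPM with TAZ-siRNA. The groups did not overlap, and the difference of the means was 8.60 CPM (exact permutation p = 0.1, the smallest possible), beside a gene-level rise from 38.8 to 51.2 CPM. Its share of VGLL4 counts was 78.4 ± 3.34% with control-siRNA and 76.2 ± 7.34% with TAZ-siRNA (SD, n = 3), an overlap. A change of that share was thus not shown, while the rise in CPM was largest at this start. The start at 11568798 averaged 2.86 CPM in the control-siRNA group and 5.70 CPM in the TAZ-siRNA group, with overlap. The start at 11604581 was at 0.0750, 0.145 and 0.0824 CPM with control-siRNA and at 0.0137, 3.00 and 3.33 CPM with TAZ-siRNA, so TAZ-siRNA replicate 1 did not share its higher level. The start at 11582356 held 0, 0 and 15 counts with control-siRNA and 52, 34 and 32 with TAZ-siRNA, without overlap. The 7 transcripts that start furthest upstream, between 11719445 and 11720715, were at 2.82, 7.83 and 5.21 CPM with control-siRNA and 2.99, 3.79 and 3.56 CPM with TAZ-siRNA, an overlap. Their share of VGLL4 counts was 13.8 ± 6.99% with control-siRNA and 6.74 ± 0.804% with TAZ-siRNA (SD, n = 3). This share did not overlap, but only narrowly (7.3 to 21.2% with control-siRNA, 5.81 to 7.24% with TAZ-siRNA). In the edgeR test of transcripts NM_001128219 was not called (log2 fold change 0.37, SE 0.12, adjusted p = 0.61).

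STK4 (NCBI gene 6789, chr20:44966470-45080021), which encodes MST1, was lower with TAZ-siRNA, whereas STK3, which encodes MST2, was not called. STK4 was 156, 161 and 158 CPM with control-siRNA and 142, 140 and 132 CPM with TAZ-siRNA. All TAZ-siRNA libraries were below all control-siRNA libraries. The level was 87.2% of control-siRNA (log2 fold change -0.20, SE 0.047, adjusted p = 0.014 by edgeR). The call held without TAZ-siRNA replicate 3 (-0.16, adjusted p = 0.0055) and was lost without control-siRNA replicate 2 (0.084) or control-siRNA replicate 3 (0.055), and with limma on FPKM (0.076 to 0.079).

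STK3 (NCBI gene 6788, chr8:98433048-98944329) was 29.8, 27.0 and 28.1 CPM with control-siRNA and 32.3, 29.9 and 29.4 CPM with TAZ-siRNA. The groups overlapped (108% of control-siRNA, interval 98.0 to 119%, adjusted p = 0.24 by edgeR). The log2 ratio of STK3 to STK4 in TPM, which compares both kinases within a library, was -1.35, -1.48 and -1.43 with control-siRNA and -1.14, -1.21 and -1.06 with TAZ-siRNA. It was higher in every TAZ-siRNA library, by 0.28 (SE 0.057, exact permutation p = 0.1, adjusted p = 0.17). The summed TPM of both kinases spanned 74.6 to 77.5 in the control-siRNA group, within the 67.7 to 78.0 of the TAZ-siRNA group. Their sum in CPM, the measure behind the calls, was not tested.

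LATS1 (NCBI gene 9113, chr6:149658153-149718256) was 67.1, 62.6 and 63.5 CPM with control-siRNA and 77.8, 77.6 and 62.9 CPM with TAZ-siRNA. Replicates 1 and 2 with TAZ-siRNA were above every control-siRNA library and replicate 3 was within their range. The log2 fold change was 0.18 (interval 0.0027 to 0.35, adjusted p = 0.13 by edgeR). Leaving out TAZ-siRNA replicate 3 gave 0.27 (adjusted p = 0.00042). LATS1 was the gene of the 10 that joined the called genes when that library was left out, where the background is the 33.7% given above. In TPM, TAZ-siRNA replicate 3 was the lowest of the TAZ-siRNA libraries for 9 of the 10 genes, TEAD4 being the exception. In CPM, TEAD3 was lowest in TAZ-siRNA replicate 1, and TEAD4 and LATS2 were lowest in TAZ-siRNA replicate 2. The share over all genes was not counted, and what sets TAZ-siRNA replicate 3 apart was not tested.

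LATS2 (NCBI gene 26524, chr13:20973036-21061586), itself a known YAP and TAZ target and a feedback inhibitor of both, was 52.4, 48.3 and 47.0 CPM with control-siRNA and 51.5, 47.7 and 51.0 CPM with TAZ-siRNA. The groups overlapped, and the level was 101.7% of control-siRNA (interval 92.8 to 111%). The log2 ratio of LATS2 to LATS1 in TPM was -0.040 with control-siRNA and -0.18 with TAZ-siRNA on average, with overlap (exact permutation p = 0.4). For comparison, of 21 other genes listed as YAP, TAZ or TEAD targets, 11 were lower and 0 higher by edgeR. The median log2 fold change of the 21 was -0.35, and over all genes 10.2% were lower and 11.9% higher. The list was chosen with earlier results of these data known, so its counts are a description only. At an unadjusted p under 0.05 were 12 of the 21, beside 6069 of all 16966 genes. Among these, ANKRD1, a cardiac ankyrin repeat protein, fell by 2.93, CCN1, a matricellular protein, by 1.42 and TGFB2, a TGF-β ligand, by 1.35 on the log2 scale.

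**Figure D3:**
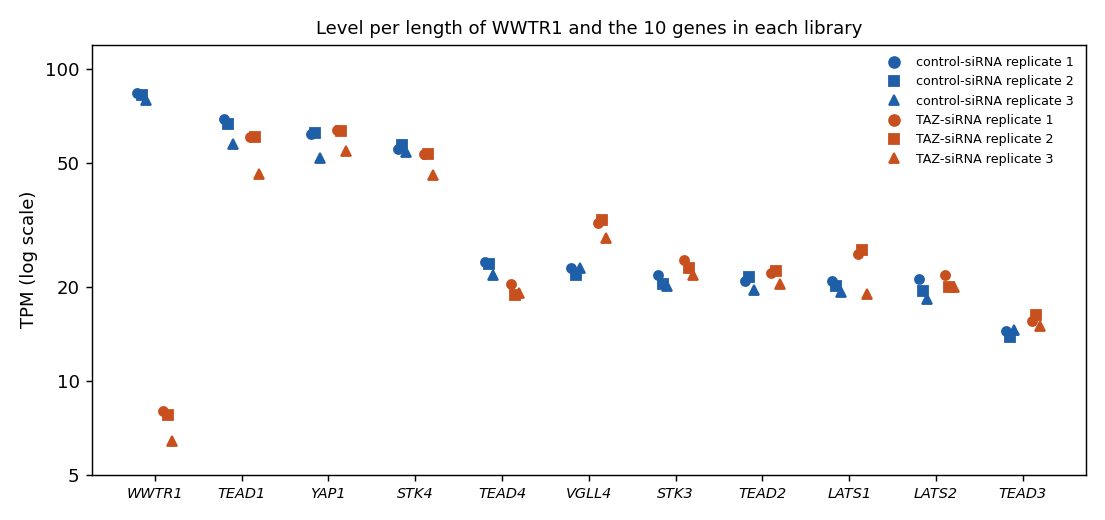
TPM (log scale) of WWTR1 and the 10 genes in each library, ordered by the control-siRNA mean. WWTR1 goes from about 82.3 to 7.40 on average, and WWTR1, TEAD1, YAP1 and STK4 stand above the other genes in the control-siRNA libraries, all of which lie between 13.9 and 24.1 TPM.

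In the control-siRNA libraries the order of levels per length was WWTR1, TEAD1 (64.5 TPM), YAP1 (58.9), STK4 (55.7), TEAD4 (23.2), VGLL4 (22.6), STK3 (20.8), TEAD2 (20.7), LATS1 (20.2), LATS2 (19.6) and TEAD3 (14.3). WWTR1 lay above all others. TEAD1 overlapped with YAP1 and YAP1 with STK4, whereas STK4 (lowest library 54.3 TPM) lay above TEAD4 (highest library 24.1 TPM). From TEAD4 to LATS2 neighbouring genes overlapped, and TEAD3 lay below all of them. With TAZ-siRNA, YAP1 (60.6 TPM) was the highest of the group, and its libraries overlapped with those of TEAD1 (55.7). VGLL4 (31.3 TPM) stood alone between STK4 and LATS1, and TEAD4 (19.5 TPM) had moved below LATS2, with which it overlapped.

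Transcripts were measured far less precisely than genes. Replicates varied by 8.04% at the gene level but by 84.4% at the transcript level (biological coefficients of variation by edgeR), and 11 of 64638 transcripts tested (0.017%) were called, among them the WWTR1 transcript NM_015472. None of the 70 tested transcripts of the 10 genes was called by edgeR or DESeq2, with 4 and 6 at an unadjusted p under 0.05. TEAD1 and TEAD3 were listed with 1 transcript each, and TEAD4 (NM_003213, 93.4% of its counts), STK3 (NM_006281, 81.4%) and LATS2 (NM_014572, 74.8%) each had 1 that held most. For LATS2 the shorter XM_011535042 held 14.1, 12.9 and 15.1% of the counts with control-siRNA and 5.01, 6.80 and 9.52% with TAZ-siRNA. That share was lower in every TAZ-siRNA library, while its edgeR adjusted p was 0.66. For YAP1 the leading transcript was XM_005271380 in every library, with 13.7 to 60.2% of the counts. For LATS1 (NM_004690, 4.70 to 65.4% per library), STK4 (NM_006282, 10.2 to 47.5%) and TEAD2 (NM_003598, 0 to 44.2%) the leading transcript differed between libraries of the same group.

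**Figure D4:**
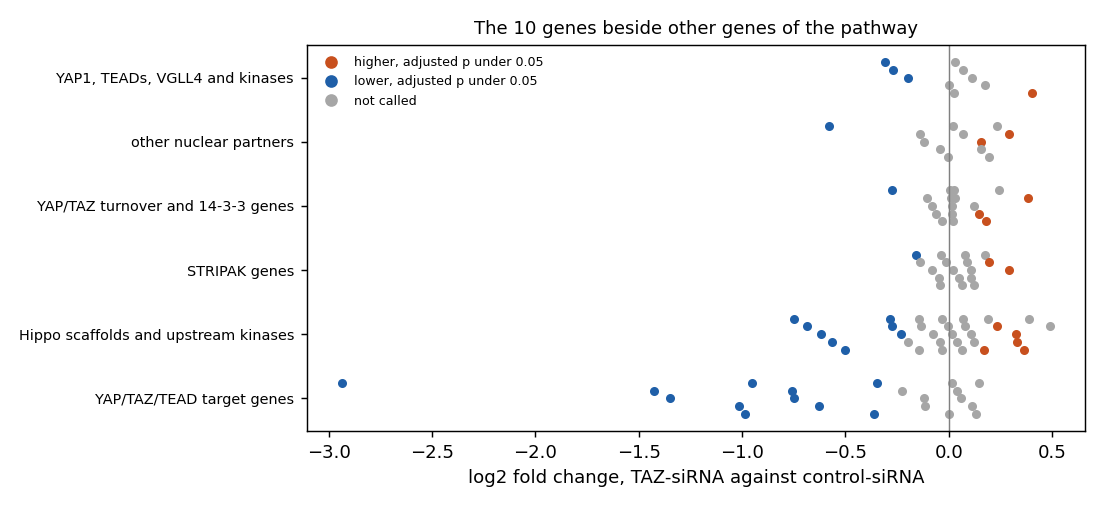
Log2 fold change (horizontal axis) of the 10 genes and of the genes of 5 other lists of the pathway that passed the filter, coloured by their call. The target genes spread to -2.93, and the other lists, like the 10 genes, lie mostly within 0.5 of 0.

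Elsewhere in the pathway, 13 of 32 tested scaffolds and upstream kinases were called, 5 higher and 8 lower, beside the 11.9% higher and 10.2% lower over all genes, and the list had a median of -0.017 on the log2 scale. AMOTL2, an angiomotin that binds YAP, fell by 0.75, WWC1 (KIBRA), a LATS-activating scaffold, by 0.69 and FRMD6, a FERM-domain protein, by 0.62 on the log2 scale. AMOTL1, also an angiomotin, rose by 0.37, RASSF5, which binds MST1, by 0.33 and MAP4K4, a kinase that acts on LATS beside MST1 and MST2, by 0.32. The STRIPAK phosphatase complex, which opposes MST1 and MST2, had 2 of 18 genes higher, the scaffold subunits PPP2R1B (0.29) and STRN3 (0.19), and 1 lower, the kinase STK26 (-0.16). Among 17 genes of YAP and TAZ turnover and 14-3-3 proteins, which hold phosphorylated YAP in the cytoplasm, WWP1, a ligase acting on LATS1 (0.38), the 14-3-3 protein YWHAG (0.18) and the F-box protein FBXW11 (0.15) were higher and the ligase NEDD4 was lower (-0.27). Among 12 tested other nuclear partners, the TAZ-binding factors NKX2-1 (0.29) and PPARG (0.16) were higher and VGLL3, a Vestigial-like relative of VGLL4, was lower (-0.58). All of these are edgeR calls at an adjusted p under 0.05, and the medians of these last 3 lists were 0.056, 0.018 and 0.044. With 3, 4 and 3 genes called of 18, 17 and 12 tested, these 3 lists lie near the 22.1% of all genes and show nothing particular to them. AMOTL2 also stands among the target genes. All these lists were chosen with earlier results of these data known. RASSF5 was called in 6, STK26, STRN3 and FBXW11 in 7, VGLL3 in 8 and PPARG in 9 of the 15 alternative fits. YWHAG was called in 11, NKX2-1 in 12 and PPP2R1B in 13. With each of the 6 libraries left out in turn, RASSF5, STK26, STRN3, FBXW11, VGLL3 and PPARG were each called in 1 fit. YWHAG was then called in 2 fits and NKX2-1 in 3. The VGLL3 call was lost without TAZ-siRNA replicate 3, among others (-0.47, adjusted p = 0.062 by edgeR). Without control-siRNA replicate 1, VGLL3 was at -0.38 (adjusted p = 0.12 by edgeR). With limma on log2(FPKM + 1), PPP2R1B was at 0.074, VGLL3 at -0.22 and WWC1, which stayed called, at -0.31.

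Across the 6 libraries, the genes whose log2 CPM followed VGLL4 most closely, out of 9938 whose mean reached 10 CPM, were PCYOX1L (Pearson r = 0.99909), STPG1 (0.99794) and ZRANB1 (0.99783). In all, 415 genes had an r above 0.95. These r values describe 6 libraries in 2 groups, and any gene with separated groups and little spread gives a high value.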

How the data were processed

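RNA from 3 control-siRNA and 3 TAZ-siRNA preparations of MDA-MB-231 cells was read as stranded mRNA libraries of paired ends. Per the paper's methods the authors used HISAT2 on GRCh38 and then StringTie with a reference gene model, whose transcript names in the tables are those of RefSeq. The submitters' processing notes also name Bowtie 0.12.2 and the mouse build mm8, with no role given, while the transcript starts in the deposited table match RefSeq GRCh38. Deposited were estimated counts (whole numbers), the FPKM and the TPM values scaled by the authors for length. Whether counting used strand is not given in the sources used here, so antisense reads could add to a gene. Replicates are separate cell preparations, numbered as in the descriptions.

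Genes were compared with edgeR 4.0.16 in R 4.3.3 (TMM, minimum count of 10, robust quasi-likelihood, Benjamini-Hochberg over all 16966 genes tested). Depth was 48307548 to 71749634 counts per library, and 3 counts equal 0.0411 to 0.0618 CPM, counting error only. Ratios of TPM were compared by exact permutation tests. Alternatives used DESeq2 1.42.0, other filters and normalizations, limma 3.58.1 on log2 FPKM with a pseudocount of 1 or 0.1, the replicate number as a block, and fits without each library, and, chosen after seeing the data, a correction for length and GC content. The deposited counts of 2 libraries of a group never agreed within sampling noise.

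The 10 genes and the lists were chosen with earlier results of these data known. Named were the 10 genes, WWTR1, up to 3 largest rises and 3 largest falls called per list, and the 3 genes most like VGLL4. Transcripts were named from those with at least 10% of a gene's counts. TEAD2, LATS1 and STK4 had 4 such transcripts each, of which only that with the largest share was named. Those of TEAD1 and TEAD3 were not named. The WWTR1 transcript was added after its values were seen. Methods were tested on simulated data.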

Additional observations from a re-analysis of the deposited data

How the results depend on the processing

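The 10 log2 fold changes were each recomputed under 15 alternatives, and 128 of the 150 values kept their direction and their side of the threshold. Signs changed in 12 values, all of YAP1 and LATS2, which were near 0. YAP1 was -0.0018 with upper-quartile factors, -0.00055 without a filter, -0.0028 with limma on log2(FPKM + 1), -0.0029 with limma on log2(FPKM + 0.1), -0.0504 with correction for length and GC content and -0.0495 with that correction and the replicate block, and it ran from -0.045 to 0.0406 with each library left out in turn. LATS2 was -0.061 with the correction, -0.063 with the correction and the block, and -0.0079 to 0.073 with each library left out. The number of the 10 genes called was 2 with either limma fit (VGLL4 and TEAD4), 2 at an adjusted p under 0.01, and 2 to 5 when each library was left out, lowest without control-siRNA replicate 2 and highest without TAZ-siRNA replicate 3. All genes called numbered 1720 at an adjusted p under 0.01 and, with each library left out, 1937 to 5928, at the same libraries as the lowest and the highest.

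Scaffolds and upstream kinases called were 7 with either limma fit and 8 to 17 with each library left out. STRIPAK genes called were 1 without a filter, 0 with limma on log2(FPKM + 1) and 0 on log2(FPKM + 0.1) (6 at an unadjusted p under 0.05 in both), 6 with the correction, 8 with the correction and the block, and from 1 to 4 with each library left out. Turnover and 14-3-3 genes called were 2 to 5, and other nuclear partners called were 0 to 4, with each library left out (0 when control-siRNA replicate 2 or TAZ-siRNA replicate 1 was left out, with 4 and 3 at an unadjusted p under 0.05 by edgeR), and 5 with the correction and the block. Over all genes, calls numbered 3461 of 27490 without a filter, and 2813 and 2841 of 16966 with limma on log2(FPKM + 1) and log2(FPKM + 0.1). They numbered 4383 of 15218 with the correction and 5203 of 15218 with the correction and the block. The list counts are to be read beside these, and the cause of the changes was not tested.

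Deviations of same-numbered libraries correlated at -0.0385, 0.0532 and 0.192. Libraries with different numbers were not compared in this way, so whether replicate numbers pair the libraries was not settled. With the replicate block 5122 genes, rather than 3749, and 5 STRIPAK genes were called. The 4 calls among the 10 genes did not change, and the adjusted p of TEAD1 by edgeR was 0.0013 with the block, beside 0.0425 without it.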
